A study of Mus musculus with 6 samples.

Results

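Mesenteric lymph node RNA of adult mice was measured on 6 two-colour Agilent arrays, and the arrays of the pools numbered 3 were set against those of the pools numbered 1 and 2. The members are the 2 arrays whose titles end in 3, out of 6 in all, and the other 4 are the comparison. The genotype was kept apart throughout, as a block in the fit or by taking each difference within a genotype. The question was which tissues' transcripts, apart from those of the exocrine pancreas, varied between node pools in the same way in both genotypes.

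Per the labels, 3 arrays held naive B-TNF KO nodes (B_TNF_KO 1, 2 and 3) and 3 held naive TB-TNF KO double nodes (TB_TNF_KO 1, 2 and 3). The series title speaks of TNF derived from T cells and B cells. All 6 pools carried a TNF knockout of one of these kinds, so no pool was wild type, and the promoter that drove the deletion is not given in the sources used here. Each pool combined the nodes of 3 mice. Each array set the pool's RNA, labelled with Cy3, against a common Cy5 reference pooled from 11 mouse cell lines. Values are log2 ratios of sample over reference, normalised within each array. A value of 0 thus means the balance of channels typical of spots of that brightness, and not equal raw signal. A difference of 1 is a 2-fold difference. The median background-subtracted sample signal was 144 to 203 per array. Of all spots, 95.9% to 99.6% per array passed the scanner's mark for sample signal above background. As a check of the tissue, the B cell and T cell marker lists had median ratios above 0 on every array, from 1.78 to 2.19 and from 1.94 to 2.32.

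TB_TNF_KO 1 and 2 were nearly the same array. They differed by at least 2-fold in 8 genes, against 26 to 181 genes in the 14 other pairs of arrays, so their mean counted as 1 sample. The labels give TB_TNF_KO 2 as female and the other 5 pools as male. The array labelled TB_TNF_KO 1, male, had as little Y-linked signal as TB_TNF_KO 2. Any difference within TB_TNF_KO therefore also sets an array with Y-linked signal against 2 with little of it. There sex and replicate number cannot be told apart. Within B_TNF_KO, where all pools are labelled male, Y-linked signal was also highest on array 3 (Eif2s3y 831, 874 and 2210). Replicate number thus went with Y-linked signal in both genotypes, and the 2 cannot be told apart in any difference of replicate 3. With the mean of TB_TNF_KO 1 and 2 as 1 sample, replicate 3 had 2 samples and the rest 3. The design text calls each pool an independent sample. Whether pools with a number in common shared a cage, a day or a dissection is not in the labels. Per the file headers the images of each genotype were read on a day of their own, which the genotype block takes up, and each array lay on a slide of its own.

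Node tissue in the mesentery lies in fat and close to the pancreas, so a dissected node can carry small amounts of either. The acinar cells of the exocrine pancreas make digestive enzymes and their inactive precursors in amounts that dominate the RNA of that organ. Many of their genes are under the control of PTF1, a transcription factor complex of Ptf1a and Rbpjl whose binding site joins an E box to a TC box. High endothelial venules, the vessels through which lymphocytes enter a node, make a set of sugar-carrying proteins that L-selectin on lymphocytes binds.

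The split was chosen by the measured log2 ratios of exocrine pancreas genes on these arrays. Every count and difference between replicate 3 and the rest is therefore a description of these 6 arrays. That includes the counts by a p threshold, which served only as a cut. A gene is called here when limma's adjusted p was under 0.05. In the fit over 37331 genes, limma called 0 genes higher and 11 lower in replicate 3, 0.0295% of those tested. Before adjustment, 2317 genes on the higher side and 782 on the lower had a p under 0.05. A second rule asked for at least 2-fold in the same direction within each genotype. It took 3 genes higher (0.00804%) and 46 lower (0.123%). Nearly all other transcripts lay close together, with 97.8% of genes within 0.25 of 0 on the log2 scale. The plot of the difference within each genotype shows the long arm of pancreas genes, with Y-linked genes at the other end.

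**Figure D1:**
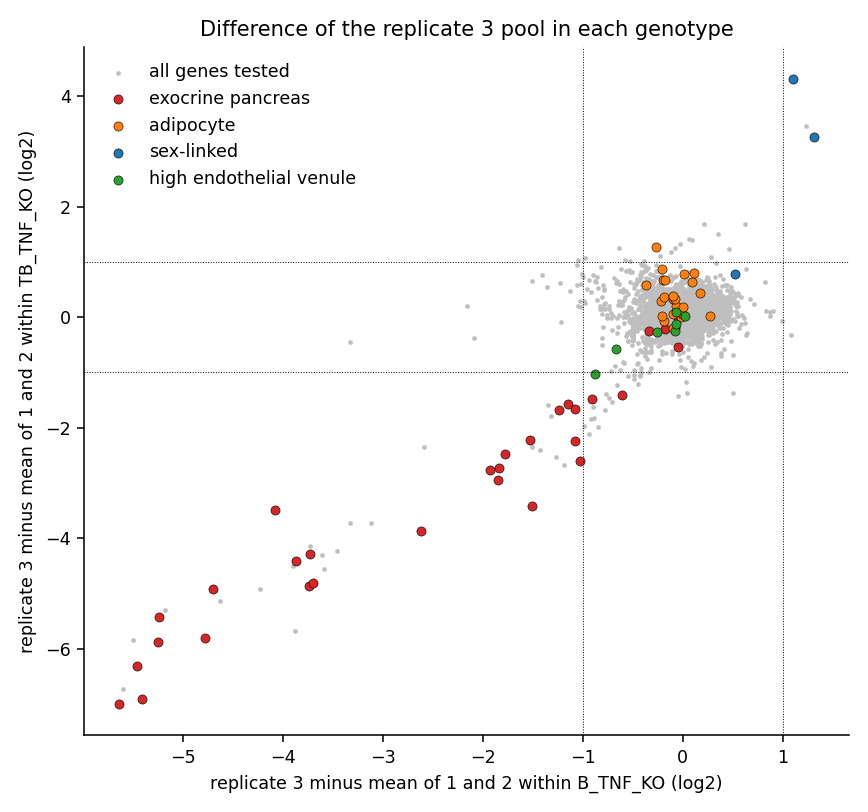
Each point is a gene, placed by the log2 difference of the replicate 3 array from the mean of arrays 1 and 2 within B_TNF_KO (x axis) and within TB_TNF_KO (y axis). Grey points are all genes, coloured points are 4 gene lists, and dotted lines mark a 2-fold difference. The 24 exocrine pancreas genes past 2-fold in both genotypes form the arm at the lower left, and adipocyte genes spread mainly along the y axis.

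The 46 lower genes were 24 members of the exocrine pancreas list, 6 other genes with a symbol and 16 transcripts that only carry a clone or accession name. Within B_TNF_KO alone 63 genes were at least 2-fold lower in replicate 3 (0.169%), and within TB_TNF_KO alone 71 (0.190%). The 46 shared genes were 73.0% of the first set and 64.8% of the second. On the higher side the sets held 4 (0.0107%) and 21 (0.0562%) genes, and the 3 shared genes were 75.0% and 14.3% of them. For scale, B_TNF_KO 1 and 2, both outside replicate 3, differed by at least 2-fold either way in 124 genes (0.333%).

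The promoters of 3 strongly lower genes are shown first, because many acinar genes are under the control of PTF1. Why these pools differed was not tested. Each is the stretch of 250 bases before the annotated start, from RefSeq (GRCm38.p6), written along the gene's strand. Capitals mark the letters CACCTG or CAGGTG, which are 1 E box read on either strand, and TTTCCC or GGGAAA, the TC box likewise.
Cel at chr2:28563404-28563653, minus strand: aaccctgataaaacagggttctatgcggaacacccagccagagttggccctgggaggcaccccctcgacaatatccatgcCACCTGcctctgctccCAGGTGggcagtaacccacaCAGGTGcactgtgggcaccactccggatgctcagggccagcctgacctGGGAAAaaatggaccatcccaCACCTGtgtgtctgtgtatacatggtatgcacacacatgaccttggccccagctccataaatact
Cela3b at chr4:137430521-137430770, minus strand: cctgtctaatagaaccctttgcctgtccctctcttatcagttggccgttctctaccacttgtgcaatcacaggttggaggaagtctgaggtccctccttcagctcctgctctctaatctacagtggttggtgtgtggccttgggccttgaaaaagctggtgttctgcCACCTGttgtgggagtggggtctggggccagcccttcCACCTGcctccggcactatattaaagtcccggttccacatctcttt
Reg1 at chr6:78425733-78425982, plus strand: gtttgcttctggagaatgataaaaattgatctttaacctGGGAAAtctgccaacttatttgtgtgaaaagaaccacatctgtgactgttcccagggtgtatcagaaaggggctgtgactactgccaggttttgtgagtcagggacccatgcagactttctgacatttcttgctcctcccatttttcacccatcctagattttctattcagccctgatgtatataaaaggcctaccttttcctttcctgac
The Cel window held 4 E boxes and 1 TC box, the Cela3b window 2 E boxes and no TC box, and the Reg1 window 1 TC box and no E box. No marked motif overlapped another. The 3 windows were picked with their matches known. That of Pnlip, a defining marker among the lowest genes, held neither motif and is not printed. Of the 31 measured exocrine list members 28 matched a promoter in the table. The E box letters stood in 17 of these 28 windows (60.7%), against 17.2% of all 32841 windows of this length. TC box letters stood in 8 (28.6%), against 22% of all, and both in 5 (17.9%), against 3.61%. TATAAA on the gene's strand lay in the last 50 bases of 9 windows (32.1%), against 2.63%. These are matches of letters and not sites shown to be bound.

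Digestive enzyme and acinar genes were the largest group on the low side. The exocrine pancreas list had 44 genes, of which 31 were measured. No probe was named Cpa1 here, so of the 4 defining markers Reg1, Pnlip and Cel were measured. The list's median log2 ratio was 1.18, 2.73 and 0.024 in B_TNF_KO 1, 2 and 3. In TB_TNF_KO 1, 2 and 3 it was 2.96, 2.89 and 0.021. The replicate 3 median was thus close to 0 in both genotypes. The 37 spots of these genes gave 0.372% and 1.01% of all background-subtracted sample signal on B_TNF_KO 1 and 2, and 1.39% and 1.41% on TB_TNF_KO 1 and 2. They gave 0.0242% and 0.0227% on the replicate 3 arrays. On B_TNF_KO 2, TB_TNF_KO 1 and TB_TNF_KO 2, 3 of these spots were saturated. Saturated spots of other genes also entered the sums, so the shares are approximate. In bulk tissue fewer cells of a type and less RNA per cell cannot be told apart.

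Among secreted proteins of acinar cells, Reg1, a regenerating islet-derived lectin that acinar cells release with the enzymes, had the largest difference. Its log2 ratio was 4.85, 6.64 and 0.10 in B_TNF_KO 1, 2 and 3. In TB_TNF_KO 1, 2 and 3 it was 7.17, 7.03 and 0.10. The replicate 3 arrays lay below the other 4 without overlap; B_TNF_KO 1 was the lowest of those 4. Replicate 3 minus replicates 1 and 2 was -6.23 (SE 0.60), a 74.8-fold lower ratio. Its sample signal was 2651, 9784 and 84.0 on the B_TNF_KO arrays, and 14165, 12043 and 62.8 on the TB_TNF_KO arrays. Over the 20 alternatives of processing the difference lay between -7.0 and -4.85. Its relative Reg2 differed by -6.05 (SE 0.38).

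Lipid digestion was represented by 6 genes. Pnlip, the triglyceride lipase of pancreatic juice, had ratios of 2.86, 4.52 and -0.0095 in B_TNF_KO and 4.83, 4.79 and 0.0094 in TB_TNF_KO. The difference was -4.17 (SE 0.54), and its second probe gave -3.37. Cel, the bile salt-stimulated lipase, had ratios of 1.72, 3.46 and -0.036 and 4.0, 3.78 and 0.021. It differed by -3.16 (SE 0.57), and its sample signal on the replicate 3 arrays was 826 and 776. Clps, the colipase that anchors the lipase, was at -4.11. Pnliprp1 and Pnliprp2, relatives of Pnlip, were at -5.22 and -1.15, with second probes at -4.0 and -3.40, and the phospholipase gene Pla2g1b at -1.33. All 6 were lower on both replicate 3 arrays than on each of the other 4.

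Protein digestion showed the same order. Cela3b, a serine protease of the elastase family, had ratios of 5.25, 6.12 and 0.22 in B_TNF_KO and 6.53, 6.50 and 0.20 in TB_TNF_KO, a difference of -5.83 (SE 0.31). The trypsinogen genes Prss3, Try4 and Prss2 differed by -5.52, -5.33 and -4.80. Trypsinogen genes are close copies, so 1 transcript may reach several of these probes. Chymotrypsin-like Ctrl and chymotrypsinogen Ctrb1 differed by -2.32 and -1.33. For the brightest of these the ratio understates the sample signal. Prss2 gave a sample signal of 24649, 65149 and 97.0 on the B_TNF_KO arrays and 65148, 65149.7 and 63.4 on the TB_TNF_KO arrays, saturated on 3 of them. Its reference signal, from the same RNA on every array, was 680.4, 2742 and 27.8 and 3552, 3363 and 27.6. Both channels were thus high on the same arrays, and the reference channel differed by -4.77 where the sample channel differed by -8.61. What made the reference signal follow the sample signal was not tested. Over all genes the reference channel was at least 2-fold lower in replicate 3 in both genotypes for 16 transcripts. These were 8 members of the exocrine list, 2 other genes with a symbol and 6 without. With limma 0 genes were called in that channel (0%), and 2442 had an unadjusted p under 0.05.

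Carbohydrate digestion was covered by Amy1, an amylase gene outside the list. Its ratios were 4.92, 5.54 and 1.33 in B_TNF_KO and 5.75, 5.87 and 1.30 in TB_TNF_KO, and the difference was -4.16 (SE 0.23). Amylase genes are near-identical copies, so the probe may also bind transcripts of the pancreatic amylases, for which no probe was named here. Granule and surface genes of acinar cells were lower too. Sycn and Zg16, proteins of the zymogen granule, differed by -4.22 and -3.98, Gp2, the major protein of the granule membrane, by -2.29, and Cckar, the cholecystokinin receptor that triggers secretion, by -2.08. The Cckar probe was well above background on 1 of the 2 replicate 3 arrays. The 5 members called by limma were Reg2, Cela3b, Prss3, Try4 and Prss2, and with Amy1 and 5 transcripts without a symbol they make up the 11 calls.

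Not every listed gene followed. The regulators had low ratios on every array. Ptf1a, a subunit of PTF1, had ratios of 0.052, 0.38 and 0.034 and 0.15, 0.18 and -0.056, and differed by -0.20. Rbpjl, its partner, had ratios of 0.25, 0.15 and -0.15 and 0.34, 0.27 and 0.057 and differed by -0.30, with a second probe at 0.016. Gatm, an enzyme of creatine synthesis that kidney and other tissues also make, had ratios of 0.63, 0.70 and 0.62 and 0.58, 0.59 and 0.59, the only measured member whose replicate 3 arrays were not both below the other 4. In all, 30 of 31 measured members lay below without overlap, where 5.40% of all genes did. Genes of this kind chose the split, so this count describes it and is no test. Klk1, a tissue kallikrein, was lower in replicate 3 but stayed bright there, with ratios of 4.82, 5.68 and 4.23 and 5.77, 5.70 and 3.14. Reg3b, an antibacterial lectin that pancreas and gut make, had ratios of 1.18, 1.50 and -0.17 and, in TB_TNF_KO, 3.32, 3.06 and -0.23. Its close relatives Reg3g and Reg3a differed by only -0.26 and -0.13.

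**Figure D2:**
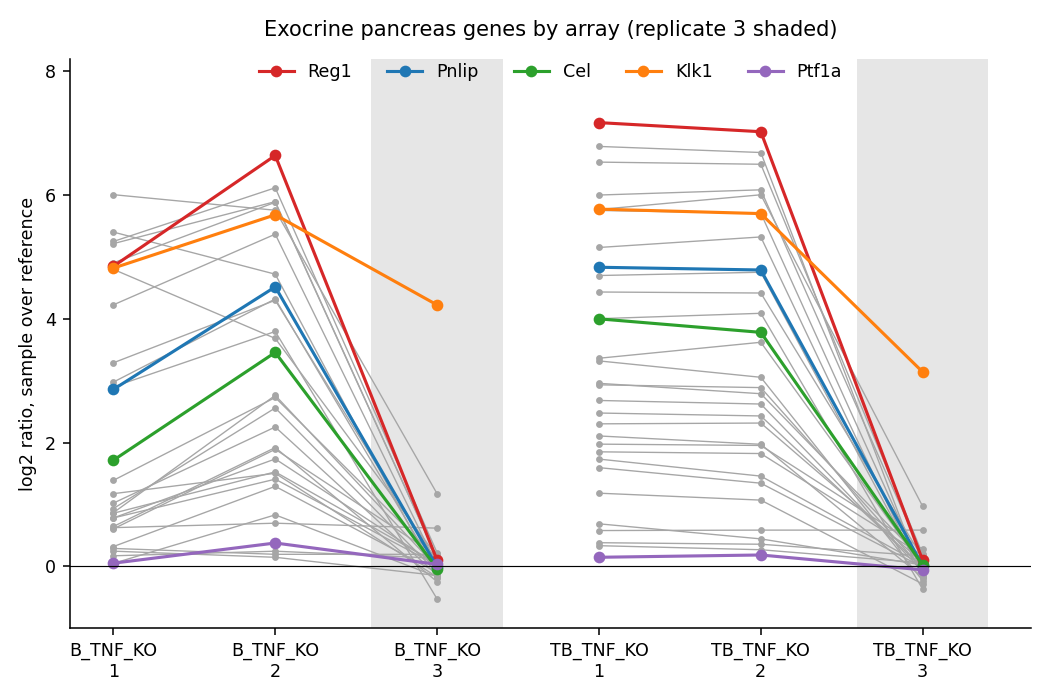
Log2 ratio of sample over reference (y axis) of the 31 measured exocrine pancreas genes on each array (x axis), with replicate 3 shaded and lines joining a gene's values within a genotype. Reg1 goes from 6.64 to 0.10 between B_TNF_KO 2 and 3 and Klk1 from 5.68 to 4.23, while Ptf1a stays near 0.

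The amount of pancreas transcript also differed within the comparison arrays. B_TNF_KO 2 was above B_TNF_KO 1 in 26 of 31 members, where 52.3% of all genes were, and the median step was 0.89. The 5 exceptions were Prss2, Try4 and Cela2a, all saturated on B_TNF_KO 2, together with Rbpjl and Reg3g. Pools 1 and 2 of B_TNF_KO thus differed from each other in these genes, and the lower of them was still far above replicate 3. The median difference of the list was -1.84 within B_TNF_KO and -2.77 within TB_TNF_KO, with -2.29 in the fit.

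Islet genes, which mark the hormone-producing part of the pancreas, had differences near 0. The islet list had 19 of 20 members measured, and its median difference was -0.022. Ins1 and Ins2, the insulin genes, differed by -0.011 and -0.11, and Gcg, the glucagon gene, by -0.10. Ins1 ratios were -0.18, -0.071 and -0.093 and -0.10, -0.11 and -0.18, with no order by replicate. Iapp, Sst and Ppy, further islet hormone genes, lay between -0.068 and 0.020. Several islet genes were dim on all arrays. Sample signals ran from 46.3 to 59.3 for Gcg, 18.7 to 31.1 for Slc2a2 and 91.6 to 150 for Ins2. The array medians were 144 to 203, and Pcsk2 was brighter, at 287 to 539. Spots near background understate a difference, so for the dim genes a value near 0 says little about islet tissue. Of the islet list 1 member, Gcg, lay below without overlap and 0 above, against 5.40% and 8.02% of all genes.

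Genes of ducts and simple epithelium gave a mixed picture. All 20 listed genes were measured, the median difference was -0.026, and 4 members lay below without overlap and 1 above, against 5.40% and 8.02% of all genes. Muc1, the transmembrane mucin of duct and gland surfaces, had ratios of -0.36, -0.052 and -0.53 in B_TNF_KO and 0.44, 0.41 and -0.50 in TB_TNF_KO. The difference was -0.58 (SE 0.16), and a second probe gave -0.21. Krt8, a keratin of simple epithelia, had ratios of -1.79, -1.79 and -2.05 and -1.73, -1.78 and -1.99 and differed by -0.25 (SE 0.043). Its partner Krt18 differed by -0.46 (SE 0.14) without a gap between the arrays, and its second probe by -0.25. Its ratios were -5.90, -5.51 and -6.03 and -5.22, -5.20 and -5.84, far below the reference. Sox9 and Cldn7 were the other members below without overlap, by -0.095 and -0.075. Epcam, Krt7, Krt19 and Cftr, which mark duct cells most closely, differed by -0.043, -0.024, -0.066 and -0.027. Muc1 and Krt18 were highest on TB_TNF_KO 1 and 2, where the exocrine share of signal was also highest, and its part in these values was not tested.

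Named genes outside the list included several that gut, gland or pancreas make. Dmbt1, a mucin-like scavenger protein of ducts and gut, had ratios of 2.27, 3.77 and -0.11 and 4.10, 4.18 and 0.40 and differed by -3.39 (SE 0.45). Tff2, a trefoil peptide of mucus-secreting glands, had ratios of 0.89, 1.91 and -0.028 and 2.41, 2.28 and -0.057 and differed by -1.85 (SE 0.37). Slc38a5, a neutral amino acid transporter, differed by -1.52 (SE 0.21). Dnaic1, an axonemal dynein chain, had ratios of 0.32, 1.27 and -0.14 and 1.95, 1.96 and -0.16. Each of these 4 had ratios close to 0 on both replicate 3 arrays, with Dmbt1 on TB_TNF_KO 3 the highest at 0.40. Each was also higher on B_TNF_KO 2 than on B_TNF_KO 1, the order that most enzyme genes had. Pih1d1, Dapk3 and Zfp647 followed the same order at smaller size, with differences of -1.06, -0.78 and -0.73. The neuropeptide gene Gal differed by -0.77, with its second probe at -1.06. Olfr1274, an olfactory receptor gene, and Ifna9, an interferon gene, differed by -0.77 and -0.76.

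The 15 named genes with lower values included 3 kallikreins, serine proteases best known from salivary gland. Klk1b11, Klk1b24 and Klk1b21 differed by -1.33 (SE 0.31), -1.29 (SE 0.30) and -0.69 (SE 0.13). Ratios of Klk1b24 were 2.33, 3.10 and 1.82 and 3.06, 2.95 and 1.19. As with Klk1, signal remained on the replicate 3 arrays, more on B_TNF_KO 3 than on TB_TNF_KO 3. Members of this family are close copies, so 1 transcript may reach several of these probes.

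The high endothelial venule list had 7 of 8 members measured, and 4 lay below all other arrays without overlap (5.40% of all genes did). The medians were 1.55, 1.74 and 1.39 in B_TNF_KO 1, 2 and 3. In TB_TNF_KO 1, 2 and 3 they were 1.58, 1.57 and 1.31. Replicate 3 had the lowest median in each genotype. Fut7 is the middle member, so these medians are its own values.

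Glycam1, a secreted mucin of these venules that binds L-selectin, gave a sample signal of 38083, 29970.2 and 7024 in B_TNF_KO 1, 2 and 3. In TB_TNF_KO 1, 2 and 3 it was 35507, 31880.5 and 7669.6. Both replicate 3 arrays were thus far below the other 4, at similar levels in the 2 genotypes. The reference signal of the same spots was 1655, 1425 and 336 and 2122, 1998 and 437, lower on the same arrays. After normalisation the sample channel alone differed by -2.51 and the reference channel by -2.03, and the log2 ratio by -0.63 (SE 0.055). The ratios were 5.45, 5.55 and 4.83 in B_TNF_KO and 5.60, 5.68 and 5.06 in TB_TNF_KO, again without overlap. Over the alternatives the difference kept its sign, from -2.51 in the sample channel alone to -0.36 with median centring.

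By the 2-fold rule in the sample channel alone, 50 transcripts were lower in replicate 3, and 45 of them also passed as ratios. Glycam1 was 1 of the 5 that did not. The others were Klk1b24 and 3 transcripts without a symbol, with differences as ratios of -1.41, -1.34, -1.32 and, for Klk1b24, -1.29. Between B_TNF_KO 1 and 2 the ratio of Glycam1 differed by 0.10, where that of Reg1 differed by 1.79.

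Madcam1, the addressin that guides lymphocytes to mucosal nodes and gut, had ratios of 3.93, 3.82 and 3.0 in B_TNF_KO and 4.09, 3.90 and 2.97 in TB_TNF_KO. The 4 comparison arrays spanned 3.82 to 4.09 and the replicate 3 arrays 2.97 to 3.00. The difference was -0.94 (SE 0.063), and it lay between -1.02 and -0.53 over the alternatives. Here the channels moved apart. The sample channel differed by -0.53 and the reference channel by 0.46, with sample signals of 4885, 4387 and 3921 and 4507, 3516 and 3567. Within TB_TNF_KO the sample signal of array 3 lay between those of arrays 1 and 2. The reference signal was 529, 602 and 723 and 650.3, 624 and 919.9.

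Fut7, the fucosyltransferase that finishes the sugar ligand of L-selectin, was lower on both replicate 3 arrays, with ratios of 1.55, 1.74 and 1.39 and 1.58, 1.57 and 1.31 and a difference of -0.26 (SE 0.070). Gcnt1, a core branching enzyme of these sugars, differed by -0.15, with a second probe at -0.0084. Ackr1, the chemokine-binding receptor of venules, differed by -0.091. Chst4, the sulfotransferase of the ligand, and Selp, an adhesion gene of activated vessels, differed by -0.0054 and 0.022. Both had ratios near 0 on all arrays. The blood endothelium list had 13 of 16 members measured, a median of 0.027, and 1 member below without overlap, against 5.40% of all genes. That was Egfl7 at -0.24. Pecam1, Cdh5 and Tie1 differed by 0.10, 0.010 and 0.11, and Emcn by 0.22.

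**Figure D3:**
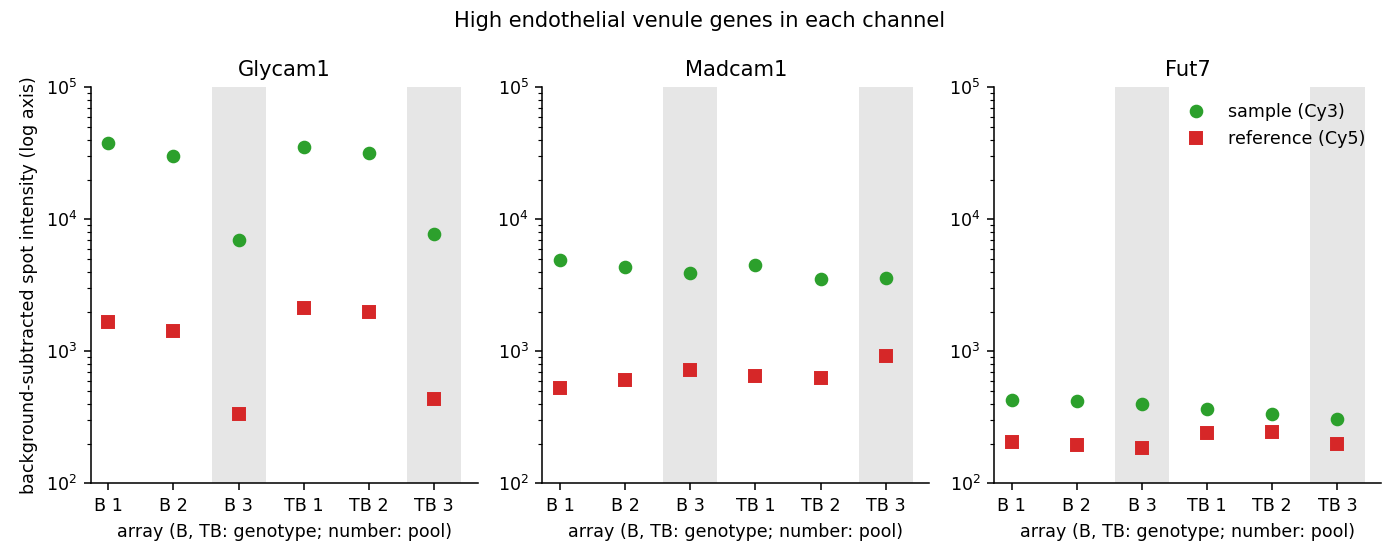
Background-subtracted spot intensity (y axis, log scale) of 3 high endothelial venule genes on each array (x axis), with the sample channel as circles and the reference channel as squares and replicate 3 shaded. Glycam1 sample signal falls between 7024 and 7669.6 on the replicate 3 arrays and at 29970.2 or more on the other 4, with the reference signal lower on the same arrays.

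The lymphatic endothelium list had 10 of 11 measured and a median of -0.063. In it 0 members lay below or above without overlap, against 5.40% and 8.02% of all genes. Ccl21a, the chemokine that brings T cells into the node, was at -0.43, but its sample channel was saturated on all 6 arrays, so the ratio carries no sample value. Lyve1 and Prox1, markers of lymphatic endothelium, differed by 0.022 and -0.087. Of 14 measured reticular and follicular dendritic cell genes, 3 lay below without overlap and 1 above (against 5.40% and 8.02% of all genes), with a median of -0.021. Mfge8, which follicular dendritic cells use to coat dying cells, had ratios of 2.07, 2.11 and 1.78 and 1.96, 2.0 and 1.75. It differed by -0.28 (SE 0.047), but the sample channel alone gave 0.045 and a second probe 0.082. Clu and Ccl19 differed by -0.18 and -0.14. Fcer2a, the low-affinity IgE receptor on follicular dendritic cells and B cells, was the member above, with ratios of 1.93, 2.10 and 2.27 and 1.80, 1.81 and 2.25 and a difference of 0.34 (SE 0.077).

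Fibroblast and matrix genes had 25 of 28 members measured and a median of -0.031, with 3 members below and 1 above without overlap, against 5.40% and 8.02% of all genes. Postn, a matrix protein of activated fibroblasts, had ratios of 2.62, 2.40 and 2.14 and 2.34, 2.25 and 1.73 and differed by -0.46 (SE 0.087), against -0.50 in the sample channel alone. Lum, a small proteoglycan, differed by -0.27, and Col14a1 by -0.19. Within B_TNF_KO they differed by -0.35 and -0.32, and within TB_TNF_KO by -0.16 and -0.028. The main fibrillar collagen genes Col1a1 and Col1a2 differed by -0.13 and -0.084, and Dcn by -0.031. Smooth muscle and pericyte genes (12 measured, median 0.020), skeletal muscle genes (11, 0.036) and nerve and glia genes (10, -0.0029) had medians within 0.05 of 0. The mesothelium list, 6 of 10 measured, had a median of -0.066, with Msln at -0.17 and Wt1 at -0.10.

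Adipocyte genes varied between pools, with medians of opposite sign in the 2 genotypes. The list had 24 of 25 members measured, and its medians were 1.47, 1.82 and 1.42 in B_TNF_KO 1, 2 and 3. In TB_TNF_KO they were 0.86, 0.78 and 1.74. TB_TNF_KO 1 and 2 were the lowest, and the other 4 arrays lay between 1.42 and 1.82. The median difference of replicate 3 was -0.094 within B_TNF_KO and 0.33 within TB_TNF_KO, 0.60 for the latter in the sample channel alone. TB_TNF_KO 3 lay above both TB_TNF_KO 1 and 2 in 22 of 24 members and below both in 2, where 41.5% and 33.7% of all genes did. B_TNF_KO 3 lay above both of its genotype in 4 and below both in 12, where 37.6% and 27.4% of all genes did. The 2 low arrays are the nearly identical ones, so this pattern rests on what may be 1 sample. They also had Y-linked signal near the floor, so sex and replicate number cannot be told apart within TB_TNF_KO.

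Genes of lipid droplets were among those with the widest gaps. Cidea, a droplet protein of fat cells, had ratios of 2.11, 1.87 and 1.72 in B_TNF_KO and 0.95, 0.88 and 2.18 in TB_TNF_KO. It differed by -0.27 within B_TNF_KO and by 1.26 within TB_TNF_KO. Its relative Cidec had ratios of 4.95, 5.19 and 5.08 and 4.43, 4.28 and 5.14. Plin1, which coats the droplet, had ratios of 1.99, 2.17 and 2.19 and 1.83, 1.48 and 2.46, and its replicate 3 arrays lay above the other 4, by 0.41 (SE 0.17) in the fit. Some lipid uptake and synthesis genes were also low on TB_TNF_KO 1 and 2, and others were not. Lpl, the lipoprotein lipase, had ratios of 1.07, 1.26 and 0.96 and 0.30, 0.27 and 1.15, and Cd36, a fatty acid transporter, 2.13, 2.31 and 2.31 and 1.59, 1.52 and 2.20. Within TB_TNF_KO the glucose transporter gene Slc2a4, the desaturase gene Scd1 and Dgat2, which completes triglyceride, differed by 0.59, 0.67 and 0.67. Within B_TNF_KO the same genes differed by -0.37, -0.20 and -0.18, and Scd1 was lowest on B_TNF_KO 1. Fasn, the fatty acid synthase, and Acsl1, which activates fatty acids, differed by 0.014 and 0.065 within TB_TNF_KO.

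Other fat cell genes had smaller differences. Adipoq, the adiponectin gene, had ratios of 4.60, 4.87 and 4.64 and 4.44, 4.36 and 4.78. Fabp4, the fatty acid carrier, differed by -0.22 within B_TNF_KO and 0.29 within TB_TNF_KO, but its sample signal of 51559, 48572 and 61557 and 21613, 16259 and 41943 was lowest on TB_TNF_KO 1 and 2, as was its reference signal (1474, 1465 and 1657 and 991, 832 and 1323). Cfd, the adipsin gene, and Lep, the leptin gene, differed by 0.020 and 0.0057 within TB_TNF_KO, and Lep ratios were near 0 throughout. Hp, the haptoglobin gene, which fat and liver make, had the largest difference among the 15 named genes with higher values. Its ratios were 2.61, 2.69 and 2.86 and 1.40, 1.30 and 3.03, and most of its difference of 0.84 (SE 0.32) came from TB_TNF_KO 1 and 2. Cyp2e1, a cytochrome of liver that fat also makes, had ratios of 4.09, 4.0 and 4.05 and 3.44, 3.36 and 4.01. The other 6 measured genes of the liver list lay between -0.10 and 0.022.

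**Figure D4:**
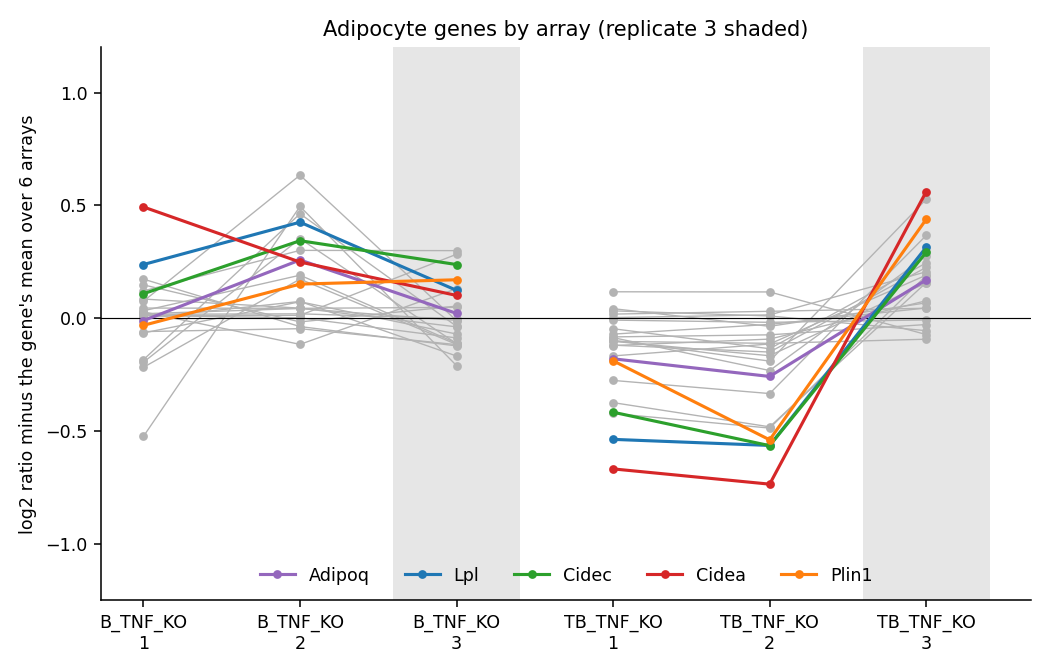
Log2 ratio of the 24 measured adipocyte genes on each array (x axis), shown as the deviation from the gene's mean over the 6 arrays (y axis), with replicate 3 shaded and lines joining values within a genotype. TB_TNF_KO 1 and 2 are low for most genes, and TB_TNF_KO 3 lies above both in 22 of 24.

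Y-linked genes gave the other pattern on the high side. Eif2s3y, a translation initiation factor gene of the Y chromosome, gave a sample signal of 831, 874 and 2210.0 in B_TNF_KO 1, 2 and 3. In TB_TNF_KO 1, 2 and 3 it was 28.4, 21.3 and 1314. TB_TNF_KO 1 and 2 were thus near the floor, the replicate 3 arrays were highest, and B_TNF_KO 1 and 2 lay between. Its ratios were 0.59, 0.88 and 1.83 and -2.81, -2.84 and 1.49. Ddx3y, an RNA helicase gene, had ratios of 0.052, 0.53 and 1.61 and -2.06, -1.95 and 1.25, the same order. Uty, a histone demethylase relative, had ratios of -0.0022, 0.076 and 0.56 and -0.32, -0.21 and 0.51. Within B_TNF_KO alone, where all 3 pools are labelled male, replicate 3 was higher by 1.10, 1.32 and 0.52 for these 3 genes. Of the 5 genes on the sex-linked list, only these 3 were measured. Over the alternatives Eif2s3y lay between 1.10 and 4.32. The third transcript at least 2-fold higher in both genotypes, BX529540.1, has no symbol here and had ratios of -0.65, 0.065 and 0.94 and -2.92, -2.60 and 0.70, in the order of the Y-linked genes.

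The B cell list had 14 of 18 measured and a median of 0.10. In it 0 members lay below or above without overlap, against 5.40% and 8.02% of all genes. TB_TNF_KO 3 lay above both TB_TNF_KO 1 and 2 in 12 of 14, and B_TNF_KO 3 above both of its genotype in 5, against 41.5% and 37.6% of all genes. Cd79a, part of the B cell receptor, differed by 0.14, and Ms4a1, which encodes CD20, by 0.079. Germinal centre genes, 7 of 10 measured, had the highest median of the lists outside pancreas and sex chromosomes, 0.12. Rgs13, a signalling regulator of germinal centre B cells, had ratios of 3.11, 2.86 and 3.12 and 2.42, 2.36 and 2.97. In the sample channel alone the germinal centre median was 0.070, with Rgs13 at 0.18. Proliferation genes, 13 of 18 measured, had TB_TNF_KO 3 above both of its genotype in 12, and B_TNF_KO 3 in 1, again against 41.5% and 37.6%. Plasma cell genes had a median of 0.036, with Xbp1 at -0.14 and Prdm1 at 0.036.

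T cell genes, 16 of 19 measured, had a median of 0.037. Cd3e, Cd4 and Cd8b1 differed by 0.025, 0.012 and -0.078, and Tcf7 and Thy1 were above without overlap by 0.21 and 0.19. Regulatory T cell genes had a median of 0.037, with Foxp3 at 0.13. NK and cytotoxic genes had a median of 0.022, with Gzmb at 0.035. The B and T cell list medians thus lay within 0.10 of 0 in the fit. Within B_TNF_KO and TB_TNF_KO the B cell median was -0.0026 and 0.20, and the T cell median 0.052 and 0.046.

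Myeloid genes included both signs. The macrophage list, 15 of 19 measured, had a median of -0.11, and 4 members lay below without overlap and 0 above, against 5.40% and 8.02% of all genes. These were C1qc, Lyz2, C1qb and Cd14, at -0.22, -0.15, -0.12 and -0.080. C1qc, a chain of the complement protein C1q, had ratios of 4.22, 4.33 and 4.08 and 4.40, 4.45 and 4.15. In the sample channel alone C1qc differed by -0.044, C1qb by 0.13 and Lyz2 by -0.032, and in the reference channel by 0.21, 0.30 and 0.047. Marco, a scavenger receptor of medullary macrophages, differed by -0.50, and by -0.041 in the sample channel alone. In the dendritic cell list, 13 of 16 measured, the median was -0.022. Clec9a, the receptor for dead cells on cross-presenting dendritic cells, was the member above without overlap, with ratios of 2.47, 2.05 and 2.72 and 2.32, 2.18 and 2.73. It differed by 0.47 (SE 0.13), between 0.34 and 0.57 over the alternatives. Xcr1, found on the same cells, differed by -0.068. Neutrophil genes had a median of 0.087, with S100a9 at 0.50 within B_TNF_KO and -0.032 within TB_TNF_KO and Camp at 0.48 and 0.11. Mast cell and erythroid lists had medians of -0.016 and -0.028.

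The named genes with higher values were small in size. After Hp came Nnat, a proteolipid gene, with ratios of 0.67, 0.60 and 0.92 and 0.16, 0.14 and 1.24 and a difference of 0.63 (SE 0.18). Timp4, an inhibitor of matrix proteases, had ratios of 0.75, 0.84 and 1.12 and 0.44, 0.43 and 1.16 and differed by 0.50 (SE 0.10). Both were lowest on TB_TNF_KO 1 and 2, the arrays with Y-linked signal near the floor. Gpr83, an orphan receptor gene, had ratios of 1.18, 0.79 and 1.23 and 0.65, 0.68 and 1.23. Mill1, Plxnb3 and Mapk10 differed by 0.49, 0.48 and 0.40, but their second probes gave 0.033, -0.043 and -0.079. Ifi209, an interferon-inducible DNA sensor, differed by 0.41 and its second probe by 0.20. Il17b, Brwd1, Nfkbid, Marchf1 and Mbd4 lay between 0.36 and 0.43. Brwd1 gave 0.056 in the sample channel alone. None of these genes was called.

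Lists of stress and early response genes had medians near 0. The immediate early list, all 19 measured, had a median of 0.019, with Fos at 0.019, Jun at -0.061 and Egr1 at 0.11. Klf6 was lower within B_TNF_KO, with ratios of -0.43, -0.31 and -0.87 and 0.32, 0.20 and 0.18. Of 10 heat shock genes 7 were measured, with a median of -0.074. Hspb1, a small heat shock protein gene, had ratios of -0.87, 0.59 and 0.29 and -0.33, -0.31 and -0.051. All 7 were higher on B_TNF_KO 2 than on B_TNF_KO 1, where 52.3% of all genes were. Endoplasmic reticulum genes, 20 of 25 measured, had 16 higher on B_TNF_KO 2 than on B_TNF_KO 1 and a median difference of 0.027 for replicate 3. Interferon-stimulated genes had a median of 0.048, and all 17 measured were higher on B_TNF_KO 2 than on B_TNF_KO 1. Ifi44 had ratios of -1.07, 0.49 and -1.09 and -0.54, -0.62 and -0.76. Clock genes had a median of 0.046. The ribosomal protein median of -0.34 was the lowest of the lists outside pancreas, but 18 of 19 members had a saturated spot and the sample channel alone gave 0.037.

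In all, 32 lists lay outside the exocrine pancreas and the sex chromosomes, with 422 measured entries. Their median differences lay between -0.34 (ribosomal protein) and 0.12 (germinal centre), where that of all genes was 0.0090. None of the 422 entries was called by limma or at least 2-fold different in both genotypes as a ratio. Of all genes 0.0295% were called, and 0.00804% were at least 2-fold higher and 0.123% lower in both genotypes. With shares this small, none among 422 entries says little about these lists. The difference between the genotypes in the size of the shift was fitted for each gene as an interaction. With limma 0 of 37247 genes were called in it (0%), and 727 had an unadjusted p under 0.05. In the plot of list medians the adipocyte list has the widest gap between the genotypes.

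**Figure D5:**
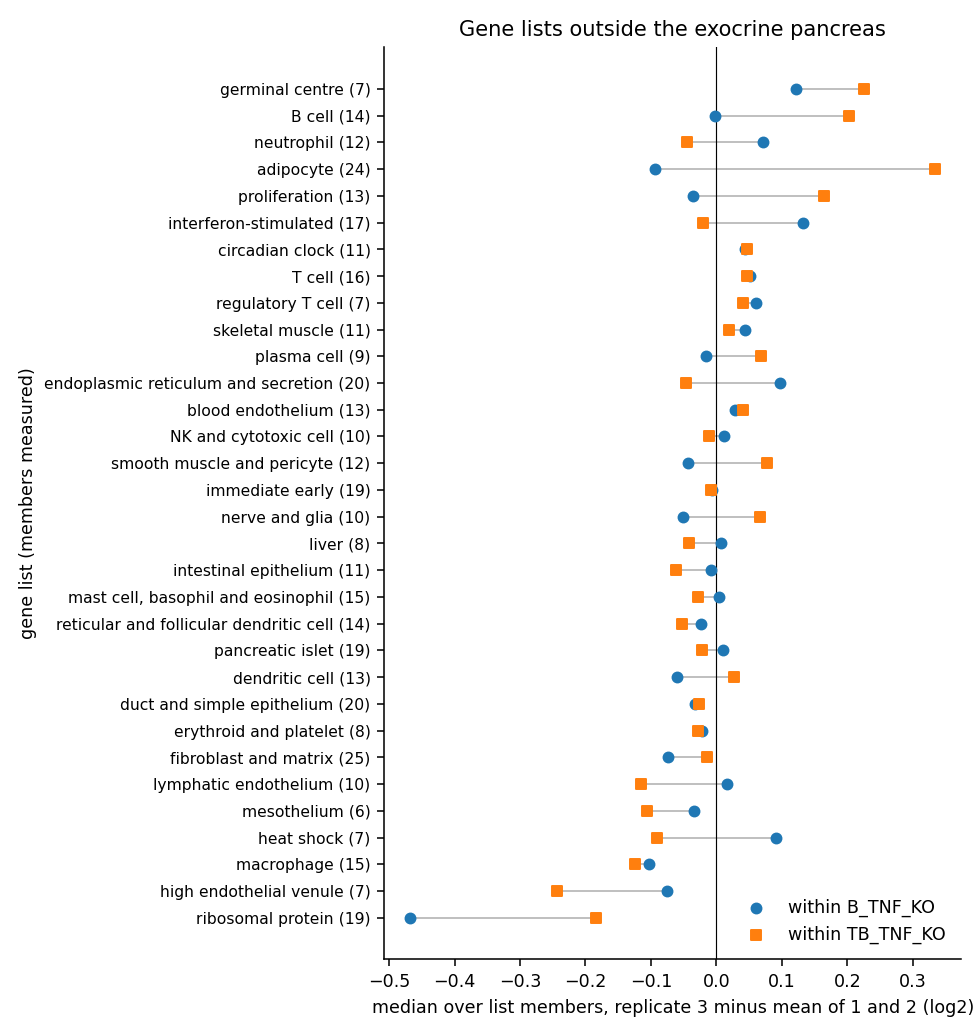
Median over list members of the log2 difference of replicate 3 from the mean of arrays 1 and 2 (x axis), within B_TNF_KO as circles and within TB_TNF_KO as squares, for the 32 gene lists outside the exocrine pancreas and the sex chromosomes (y axis, members measured in brackets). Medians within a genotype run from -0.47 for ribosomal protein in B_TNF_KO to 0.33 for adipocyte in TB_TNF_KO.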

How the data were processed

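The authors' image analysis was by Agilent Feature Extraction, per the file headers. Each deposited file lists the intensity of every spot and of its surroundings per channel, with a log10 ratio. The deposited series table holds log10 values (column medians 2.98 to 2.99) that followed the authors' processed sample signal. Its background step and scaling are unknown, and both authors' values served as alternatives. The number of arrays limits the precision.

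Intensities were corrected with normexp (offset 50) and loess within arrays in limma 3.58.1 (R 4.3.3). Control spots and 228 outlier spots were left out. A probe was kept when well above background in the sample channel on at least 2 arrays (40836 of 41006 probes). A gene was represented by its probe with the highest mean sample signal. Symbols came from RefSeq (GRCm38.p6) for 15303 of 41034 spots. Other spots kept the file's name.

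The fit (lmFit, eBayes, Benjamini-Hochberg) took B_TNF_KO 1, 2 and 3, the mean of TB_TNF_KO 1 and 2, and TB_TNF_KO 3, with genotype as a block. Named genes were the markers, 15 per direction with the largest differences and no overlap (called genes first, clone names and the pancreas and sex-linked lists left out), and up to 4 per list or members a result turned on; well-known members of a list were added after their values were seen. The members, the 34 lists and the rules were chosen with earlier results of these data known. The script was tested on simulated data. The 20 alternatives covered background, normalisation, single channels, the authors' values, filters, probe handling, the model and each array left out. Figures used matplotlib 3.10.9 in Python 3.11.15. Some named list members are not reported here.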

Additional observations from a re-analysis of the deposited data

Results flagged for a closer look

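In 6 lists the medians of the arrays moved in opposite directions in the 2 genotypes, with replicate 3 above both other arrays in one and below both in the other. The difference between genotypes was not tested for any list. For adipocyte genes the difference within TB_TNF_KO minus that within B_TNF_KO was 0.43, taken between the medians over members. For smooth muscle and pericyte genes it was 0.12, with medians of -0.10, -0.038 and -0.11 in B_TNF_KO and -0.13, -0.12 and -0.040 in TB_TNF_KO. For nerve and glia genes it was 0.12. For intestinal epithelium genes it was -0.054, with Fabp1 at -0.27 in the fit. For macrophage genes it was -0.021, and for immediate early genes -0.0018. In these last 3 lists the median over members' differences had the same sign in both genotypes. It was -0.0080 within B_TNF_KO and -0.061 within TB_TNF_KO for intestinal epithelium, -0.10 and -0.12 for macrophage, and -0.0071 and -0.0089 for immediate early genes.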

How the results depend on the processing

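No paired analysis was possible because the replicate number is itself what is compared. The count of genes lower by limma, 11, was 22 with the 6 arrays counted separately, 7 each with the sample channel alone and with saturated probes left out, 2 each with the deposited log ratio and without background subtraction, 1 with normexp at offset 0 and 0 with the deposited series table. The count of genes higher, 0, was 4 with the 6 arrays counted separately. Leaving out each array in turn gave 0 to 3 higher and 1 to 78 lower. It was 78 lower without B_TNF_KO 1, 6 without B_TNF_KO 2, and 1 each without B_TNF_KO 3 and TB_TNF_KO 3, and 3 higher without B_TNF_KO 1. A fit that leaves 1 replicate 3 array assumes that it varies like the others. Counts past 2-fold in both genotypes were 0 higher without background subtraction and 8 higher at offset 0. With single arrays left out they were 1 to 21 higher and 32 to 71 lower, with 21 and 71 without B_TNF_KO 3 and 1 higher without B_TNF_KO 1. Without either replicate 3 array that rule rests on 1 genotype. The exocrine median lay between -2.77 and -1.84. The adipocyte median lay between -0.097 and -0.012 within B_TNF_KO and between 0.32 and 0.35 within TB_TNF_KO, and was 0.60 there with the sample channel alone. For all other results 4338 values kept their side or stayed within the spread, 657 moved, 48 passed only under the alternative and 45 no longer passed. The sign changed in 197 values of 98 results that were not called, such as Cidea at -0.27 without TB_TNF_KO 3, and in 0 of the 31 genes tried that were called or 2-fold in both genotypes. The cause of these differences was not tested. Spots near background give ratios that understate a difference. Saturated spots can understate a difference or show one that the sample channel lacks. Rps9, saturated on all 6 arrays, differed by -0.46 as a ratio and by 0.0051 in the sample channel alone.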

Other observations

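The transcripts named here were picked out by looking at their values. XM_136007.3, a predicted transcript without a symbol here, had ratios of 1.70, 1.12 and -4.09 in B_TNF_KO and 1.96, 1.83 and -3.94 in TB_TNF_KO. Its sample signal was 2812, 1611 and 22.4 and 2336, 1973 and 5.98, and its reference signal 1551, 1521 and 1520.5 and 1574, 1572 and 1515. It was thus far below the reference in both replicate 3 pools and above it in the other 4, and it was higher on B_TNF_KO 1 than on B_TNF_KO 2, unlike Reg1. The probe was well above background on 1 of the 2 replicate 3 arrays. Z00070331-1, also without a symbol, had ratios of 4.09, 4.0 and -1.14 and 3.66, 4.11 and -1.41 and was saturated on 3 arrays.

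Other transcripts were low in a single pool. BC018473.1 had ratios of 3.17, 3.45 and -0.024 in B_TNF_KO and 4.26, 4.28 and 3.82 in TB_TNF_KO, low on B_TNF_KO 3 only. Ctsc, which encodes the protease that activates granule enzymes, had ratios of 3.91, 1.73 and 3.81 and 3.41, 3.22 and 3.24, low on B_TNF_KO 2, and its second probe differed by 1.19 in the fit.

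Several genes outside the adipocyte list were low on TB_TNF_KO 1 and 2 as its members were. Cyp1a1, a cytochrome of xenobiotic metabolism, had ratios of 2.44, 3.41 and 3.27 and 1.42, 1.36 and 2.89. Pnpla3, a lipid droplet enzyme, had ratios of 1.22, 2.42 and 1.74 and 0.90, 0.91 and 2.16. Slc1a5, a glutamine transporter, had ratios of 0.86, 1.18 and 1.11 and 0.26, 0.29 and 1.67.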
